A study of Mus musculus with 93 samples.

Results

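The mRNAs of 8 genes that make, sense and clear extracellular adenosine were followed across granulosa cells and oocytes of Esr2 knockout (KO) and wild type (WT) mice. The 8 genes are Entpd1, Nt5e, Slc29a1, Ada, Adk, Adora1, Adora2a and Adora2b, out of 24047 genes with a row in 1 or more of the 6 deposited count tables. They were chosen as one pathway because Entpd1 and Nt5e were low in granulosa cells of young KO mice. The KO against WT values in granulosa cells at 4 and 7 weeks are therefore given as a description with no test for any of the 8 genes, and the changes of Entpd1 and Nt5e with age in granulosa cells likewise. All 8 genes had a row in each granulosa table. Nt5e and Adora1 had no row in the 3 oocyte tables, which list only genes above a small row total, so their oocyte levels were not analysed here.

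Smart-seq2, which copies whole mRNAs out of minute amounts of RNA, was run on ovarian granulosa cells, the hormone-producing support cells of the follicle, and on oocytes. KO mice lacked estrogen receptor beta, the product of Esr2, and WT mice were their comparison group. Granulosa libraries numbered 7 KO and 7 WT at 4 weeks of age, 5 KO and 5 WT at 7 weeks, and 6 KO and 12 WT at 6 months. Oocyte libraries numbered 7 KO and 12 WT at 4 weeks, 12 KO and 5 WT at 7 weeks, and 4 KO and 11 WT at 6 months. The labels name no treatment, strain, knockout allele, pooling or animal, so each p-value reflects how libraries of a group vary, and that variation may be technical.

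Totals ran between 702726 and 6469419 counts in the 42 granulosa libraries and between 1814958 and 7751953 counts in the 51 oocyte libraries. Esr2 had 0 counts in every KO granulosa library. In KO oocytes it summed to 1 count over the libraries at 4 weeks, 4 counts at 7 weeks and 0 at 6 months, while its lowest WT group mean was 11.5 ± 4.64 CPM in granulosa cells at 6 months (SD, n = 12). CPM is the count scaled to a library total of 1000000. Granulosa markers summed to between 1502 and 6409 CPM in granulosa libraries and to between 43.6 and 381 CPM in oocyte libraries. Oocyte markers summed to between 1.42 and 688 CPM in granulosa libraries and to between 11224 and 40205 CPM in oocyte libraries, so both cell type labels fitted their defining markers.

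ATP that leaves a cell is cut to AMP at the cell surface by ENTPD1 (CD39), and AMP is cut to adenosine by NT5E (CD73). Adenosine then acts on G protein coupled receptors, of which the product of Adora1 lowers cyclic AMP and those of Adora2a and Adora2b raise it, or it enters the cell through the equilibrative transporter SLC29A1 (ENT1). Inside the cell ADK returns it to AMP and ADA turns it into inosine. In the ovarian follicle, purines and cyclic AMP are known for their part in holding the oocyte in meiotic arrest.

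The promoters of Entpd1 and Nt5e are shown because these were the members that were low together in young KO granulosa cells. They are RefSeq sequences of the GRCm38.p6 build, running from 250 bases before to 50 bases after the annotated start, 5′ to 3′. Such promoters were found for 7 of the 8 members. Entpd1 had 2 of them, at chr19:40612116-40612415 (+) and chr19:40659520-40659819 (+), and Nt5e had 1, at chr9:88327359-88327658 (+). The Nt5e window, like the downstream one of Entpd1, lies inside the gene span of GENCODE, which begins at 88327197 for Nt5e. Positions in the Nt5e promoter hold for the RefSeq start only. Capitals mark matches to TGACG, the core of a cyclic AMP response element, in Entpd1 and to GGGCGG, the GC box, in Nt5e, all on the strand opposite to the one printed.
Entpd1 upstream start: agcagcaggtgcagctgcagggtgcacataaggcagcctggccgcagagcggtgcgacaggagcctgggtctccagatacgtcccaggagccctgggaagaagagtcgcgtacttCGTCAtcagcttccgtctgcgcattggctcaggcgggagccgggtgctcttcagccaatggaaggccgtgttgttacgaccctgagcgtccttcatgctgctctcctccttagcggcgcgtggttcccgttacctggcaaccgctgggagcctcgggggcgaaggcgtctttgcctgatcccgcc
Entpd1 downstream start: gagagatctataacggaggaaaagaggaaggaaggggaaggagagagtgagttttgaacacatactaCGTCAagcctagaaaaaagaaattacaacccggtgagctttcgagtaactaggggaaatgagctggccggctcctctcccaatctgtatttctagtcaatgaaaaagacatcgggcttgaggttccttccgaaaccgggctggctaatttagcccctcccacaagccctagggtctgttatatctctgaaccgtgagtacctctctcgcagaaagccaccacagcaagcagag
Nt5e start: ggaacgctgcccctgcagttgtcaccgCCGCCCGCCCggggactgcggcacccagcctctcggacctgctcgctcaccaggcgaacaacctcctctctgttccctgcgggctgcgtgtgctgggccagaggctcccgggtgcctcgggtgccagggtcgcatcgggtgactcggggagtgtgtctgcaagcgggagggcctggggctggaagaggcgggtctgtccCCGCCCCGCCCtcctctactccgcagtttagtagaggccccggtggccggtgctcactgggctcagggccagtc

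Each Entpd1 promoter held 1 such core and no GC box. The core began at -135 in the upstream promoter and at -183 in the downstream one, where the first base of the transcript is 0. The Nt5e promoter held 4 GC boxes, beginning at -223, -219, -24 and -19, of which the first and second overlap each other, as do the other two. G and C made up 64% and 48.7% of the bases of the Entpd1 promoters and 71% of those of Nt5e, against a median of 52.7% over 32851 mouse promoters of the same length. On both strands, TGACG occurred in 20.8% and GGGCGG in 35.7% of all these promoters. The palindromic estrogen response element was found in 0.07% of all promoters and its single arm AGGTCA in 16.3%, and neither was found in the 3 promoters shown. The palindromic cyclic AMP response element, which contains the core, occurred in 1.79% of all promoters and the AP-1 motif TGANTCA in 7.81%, and neither was found in these 3. These are letter matches in a fixed window and carry no information on binding.

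Entpd1 (ENSMUSG00000048120.16, chr19:40612366-40741602 in GRCm38), which takes ATP and ADP to AMP, was low in young KO granulosa cells and had a higher level at each later age there. At 4 weeks the 7 KO granulosa libraries ran between 8.51 and 19.5 CPM with a median of 11.5 CPM, and the 7 WT granulosa libraries between 32.5 and 103 CPM with a median of 73.2 CPM. No KO library reached the lowest WT library. At 7 weeks the KO libraries had 40.6, 16.6, 15.1, 23.4 and 30.2 CPM, against 49.8, 85.0, 84.7, 80.6 and 45.0 CPM in WT libraries, again without overlap. The fitted log2 fold change, KO over WT, was -2.56 ± 0.29 (SE) at 4 weeks, 5.91-fold lower in KO, and -1.59 ± 0.33 at 7 weeks. Among all genes, 2.33% were called at 4 weeks and 0.8% at 7 weeks, and since the genes were chosen on these contrasts nothing is read from those shares. Leaving out the libraries under 1000000 counts gave -1.87 ± 0.33 at 7 weeks.

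At 6 months the Entpd1 difference between genotypes was small and did not pass the test. The 6 KO granulosa libraries ran between 18.9 and 57.9 CPM with a mean of 33.7 ± 14.2 CPM (SD), and the 12 WT libraries between 26.5 and 56.9 CPM with a mean of 42.0 ± 9.29 CPM. The ranges overlapped, with 2 KO libraries below the lowest WT library and 1 above the highest. The fitted change was -0.18 ± 0.22 (SE), with an adjusted p of 0.594 by the edgeR quasi-likelihood test. The fitted change between 6 months and 4 weeks was 1.58 ± 0.28 on the log2 scale in KO granulosa cells and -0.78 ± 0.23 in WT granulosa cells. These are descriptions, since the 4 week libraries entered the choice of the gene.

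Nt5e (ENSMUSG00000032420.8, chr9:88327197-88372092), which makes adenosine out of AMP, had a lower mean in KO granulosa cells at all 3 ages, and at 6 months, where it could be tested, it fell. At 4 weeks the KO libraries ran between 2.57 and 12.5 CPM with a median of 7.01 CPM, and the WT libraries between 37.4 and 116 CPM with a median of 59.0 CPM. The fitted change of -3.10 ± 0.35 (SE) put Nt5e 8.57-fold lower in KO, with no overlap between genotypes. At 7 weeks the KO libraries had 44.8, 41.9, 18.4, 20.4 and 17.9 CPM, against 141, 29.9, 51.0, 50.2 and 123 CPM in WT libraries. Here 3 of the 5 KO libraries lay below the lowest WT library, and the fitted change was -1.54 ± 0.42.

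At 6 months Nt5e had between 7.02 and 25.6 CPM in the 6 KO granulosa libraries, with a mean of 18.3 ± 6.67 CPM (SD), and between 22.7 and 116 CPM in the 12 WT granulosa libraries, with a mean of 55.2 ± 26.5 CPM. All 6 KO libraries lay below the WT median of 49.5 CPM and 4 of them below the lowest WT library. Nt5e fell by 1.44 ± 0.29 (SE) on the log2 scale, 2.71-fold, with an adjusted p of 0.00327 by edgeR's quasi-likelihood test. Of the 7 members in that comparison 1 rose and 1 fell, against 6.59% of the 12505 genes tested that rose and 6.05% that fell, 12.6% in all. Over all genes 824 were higher and 756 lower, and with library totals in place of TMM 555 were higher and 1223 lower. Between 6 months and 4 weeks the fitted log2 change of Nt5e was 1.60 ± 0.37 in KO granulosa cells and -0.06 ± 0.29 in WT granulosa cells, given without a test.

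**Figure D1:**
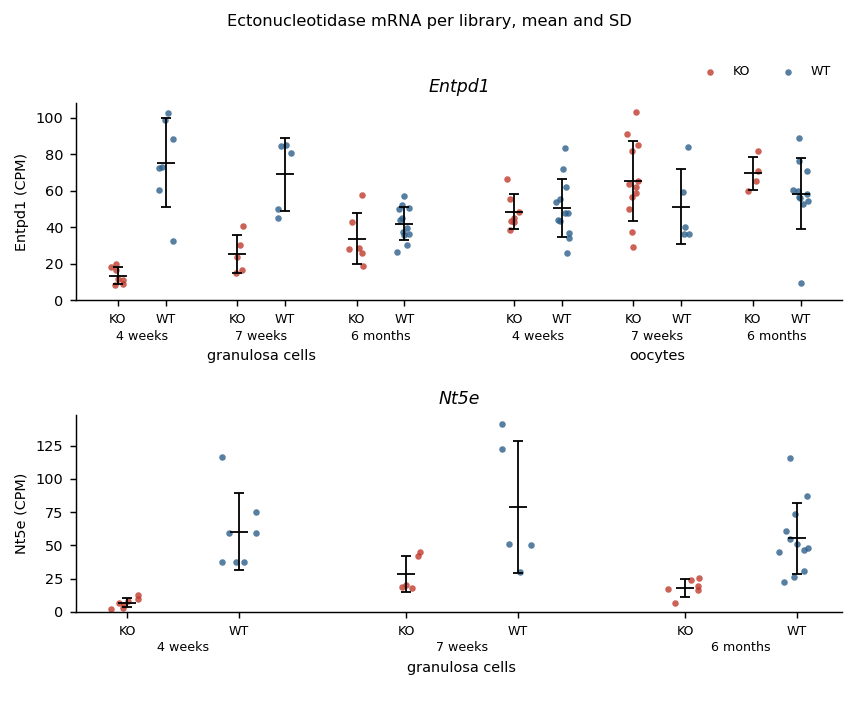
Entpd1 and Nt5e level per library in CPM (vertical axis) by cell type, age and genotype, with KO in red and WT in blue. Each point is 1 library, the horizontal dash is the group mean and the bars are SD. In granulosa cells Entpd1 means in KO were 13.4, 25.2 and 33.7 CPM at 4 weeks, 7 weeks and 6 months, and Nt5e means in KO were 7.05, 28.7 and 18.3 CPM. Nt5e has no oocyte row and its panel shows granulosa cells only.

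The balance between the surface enzymes was described as the log2 ratio of Nt5e CPM over Entpd1 CPM within a library, a measure chosen after the values had been seen. At 6 months it averaged -0.90 ± 1.13 in KO granulosa cells (SD, n = 6) and 0.28 ± 0.74 in WT granulosa cells (SD, n = 12), with overlapping ranges. At 4 weeks the ratio averaged -1.04 ± 1.28 in KO and -0.36 ± 0.99 in WT granulosa cells (SD, n = 7 each), and at 7 weeks 0.16 ± 0.77 in KO and 0.0046 ± 1.38 in WT (n = 5 each). The ratio is given with no test. The relation between the enzymes over the 12 WT granulosa libraries at 6 months did not pass a test. Pearson's r was 0.08 (permutation p = 0.816) and Spearman's rho 0.12 (permutation p = 0.717), and r was 0.21 without the 2 libraries farthest from the median Nt5e level. None of 5 such relations at 6 months, which also set each enzyme against the summed immune and endothelial markers, passed after adjustment. The adjustment was over 10 relations at 6 months and 4 weeks. The lowest adjusted permutation p of the 5 was 0.480 for Pearson's r and 0.444 for Spearman's rho. The largest r of the 5 was 0.45, for Nt5e against the endothelial sum (permutation p = 0.144). It was 0.60 without the 2 libraries farthest from the median endothelial sum. A missed threshold over 12 libraries does not show that a relation is absent.

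CD39 and CD73 are also carried by leukocytes and vascular endothelium, and markers of other cell types moved with genotype in these bulk libraries, where fewer cells of a type and less RNA per cell cannot be told apart. All 14 immune markers were detected in granulosa cells. Their sum ran between 285 and 636 CPM in KO and between 450 and 2146 CPM in WT at 4 weeks, between 291 and 3629 CPM in KO and between 408 and 3186 CPM in WT at 7 weeks, and between 263 and 1120 CPM in KO and between 262 and 4937 CPM in WT at 6 months. With that sum as a covariate, Entpd1 gave -2.69 ± 0.37 (SE) at 4 weeks and -1.57 ± 0.33 at 7 weeks, and Nt5e -2.77 ± 0.46 and -1.22 ± 0.40. Nt5e at 6 months then changed by -1.44 ± 0.31 (SE, adjusted p = 0.00729 by edgeR's quasi-likelihood test), and by -1.44 ± 0.29 without the covariate. The immune sum itself moved with genotype, with means of 450 CPM in KO and 1186 CPM in WT at 4 weeks. A fit with this covariate therefore cannot separate the sum and genotype there, and nothing about the source of the mRNA is read from it. Endothelial markers, of which 8 of 12 were detected at 6 months and 9 of 12 at 4 weeks and neither Tek nor Emcn at any age, summed to between 18.2 and 51.5 CPM in KO and to between 22.4 and 54.2 CPM in WT at 6 months, and to between 21.3 and 34.6 CPM in KO and to between 20.3 and 63.0 CPM in WT at 4 weeks. Luteal markers, 10 of 10 detected, summed to between 3098 and 5806 CPM in KO and to between 4373 and 13245 CPM in WT at 4 weeks, to between 4579 and 8826 CPM in KO and to between 6842 and 14109 CPM in WT at 7 weeks, and to between 5351 and 12807 CPM in KO and to between 4402 and 10006 CPM in WT at 6 months. Erythroid markers, 5 of 5 detected, summed to between 9.23 and 40.9 CPM in KO and to between 26.1 and 890 CPM in WT at 4 weeks. Surface epithelium markers, 9 of 9 detected, summed to between 148 and 465 CPM in KO and to between 580 and 1856 CPM in WT at 7 weeks. Their ranges overlapped at 4 weeks, at 194 to 884 CPM in KO and 225 to 552 CPM in WT. They also overlapped at 6 months, at 368 to 1197 CPM in KO and 404 to 1278 CPM in WT. Granulosa markers, 10 of 10 detected, summed to between 2919 and 6409 CPM in KO and to between 1502 and 4065 CPM in WT at 4 weeks. Erythroid markers summed to between 2.58 and 163 CPM in KO granulosa cells at 6 months, with a mean of 56.5 CPM, and to between 30.1 and 876 CPM in WT, with a mean of 364 CPM, beside the changes of Nt5e and Slc29a1 at that age. The part of luteal, erythroid, surface epithelium and granulosa cell RNA in the Entpd1, Nt5e and Slc29a1 values was not tested. The covariate fits and the relations above do not measure the part of immune or endothelial cell RNA either.

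Slc29a1 (ENSMUSG00000023942.15, chr17:45585200-45599606), the main carrier of adenosine across the plasma membrane, rose in KO granulosa cells at 6 months. The 6 KO libraries had 33.8, 33.3, 41.1, 28.6, 35.0 and 31.5 CPM, and the 12 WT libraries ran between 5.67 and 28.5 CPM with a median of 15.2 CPM. Every KO library lay above the highest WT library. The log2 fold change was 1.14 ± 0.26 (SE), 2.20-fold higher in KO, with an adjusted p of 0.00799 by edgeR's quasi-likelihood test. With the immune sum as a covariate it was 1.08 ± 0.29 (adjusted p = 0.0232). Theca and stroma markers, of which 9 of 11 were detected and neither Cyp17a1 nor Tcf21, summed to between 6.45 and 341 CPM in these KO libraries and to between 9.33 and 49.2 CPM in WT, and their part in the result was not tested. An antisense gene, Gm17080, overlaps Slc29a1, and the sources used here do not state whether counting used strand.

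At the younger ages the genotypes overlapped for Slc29a1. KO granulosa cells averaged 19.7 ± 8.39 CPM and WT granulosa cells 20.5 ± 9.54 CPM at 4 weeks (SD, n = 7 each), and 19.6 ± 12.1 and 23.1 ± 6.62 CPM at 7 weeks (n = 5 each). The change between 6 months and 4 weeks in KO granulosa cells was 1.01 ± 0.37 on the log2 scale and missed the threshold (adjusted p = 0.0572), while DESeq2 size factors in place of TMM put it past the threshold (adjusted p = 0.0477), as did the DESeq2 test (adjusted p = 0.0355). In WT granulosa cells it was -0.26 ± 0.31 (adjusted p = 0.667). Oocytes held little Slc29a1 mRNA, with group means between 1.03 and 2.08 CPM and 12 of 51 libraries at 0.

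Adk (ENSMUSG00000039197.10, chr14:21052574-21448569), the adenosine kinase that salvages adenosine to AMP, was the most abundant member per kilobase of merged exons in 11 of the 12 groups. At 6 months it had 22.7 ± 3.06 CPM per kilobase in KO granulosa cells and 17.9 ± 5.82 in WT granulosa cells. The exception was WT granulosa cells at 4 weeks, where Entpd1 had 13.5 ± 4.35 and Adk 13.4 ± 5.21 CPM per kilobase. Between 6 months and 4 weeks Adk rose in KO granulosa cells. It had between 163 and 235 CPM in the 6 KO libraries at 6 months and between 62.0 and 142 CPM in the 7 KO libraries at 4 weeks, with no overlap, and the log2 change was 1.17 ± 0.29 (SE, adjusted p = 0.00526 by edgeR's quasi-likelihood test). It was the only one of 5 members tested for age in KO granulosa cells to pass, against 13.8% of all 14307 genes, and Adora2b entered those 5 although it was below the filter in the 4 week table. Those were 941 higher and 1029 lower with TMM and 517 higher and 2035 lower with library totals. None of the 5 passed in WT granulosa cells, against 8% of all genes, and the log2 change of Adk there was 0.48 ± 0.25 (adjusted p = 0.240). The age effect was not tested for a difference between genotypes.

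Between genotypes Adk did not pass at 6 months, at 0.46 ± 0.22 on the log2 scale (adjusted p = 0.146), although all 6 KO libraries lay above the WT median of 156 CPM. At 4 weeks KO granulosa cells averaged 101 ± 28.9 CPM and WT granulosa cells 114 ± 44.4 CPM. At 7 weeks the KO libraries had 63.0, 96.9, 39.8, 108 and 104 CPM, against 129, 174, 107, 128 and 109 CPM in WT libraries, and 4 of the 5 KO libraries lay below the lowest WT library. The fitted change at 7 weeks was -0.74 ± 0.30, given without a test.

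Ada (ENSMUSG00000017697.3, chr2:163726584-163750239), which deaminates adenosine to inosine, had group means between 5.17 and 19.0 CPM, over 2.00 kilobases of merged exons. At 6 months the KO granulosa libraries had 12.9, 13.9, 12.1, 9.71, 14.8 and 11.6 CPM, and the WT granulosa libraries ran between 0.68 and 12.8 CPM with a median of 6.70 CPM. All 6 KO libraries lay above the WT median and 3 above the highest WT library. The log2 change of 1.02 ± 0.38 (SE) did not pass the test (adjusted p = 0.0735). The KO mean was 11.4 ± 4.68 CPM and the WT mean 8.42 ± 6.61 CPM at 4 weeks, and 5.17 ± 3.38 CPM in KO and 9.43 ± 2.41 CPM in WT at 7 weeks, with overlapping ranges at both ages.

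**Figure D2:**
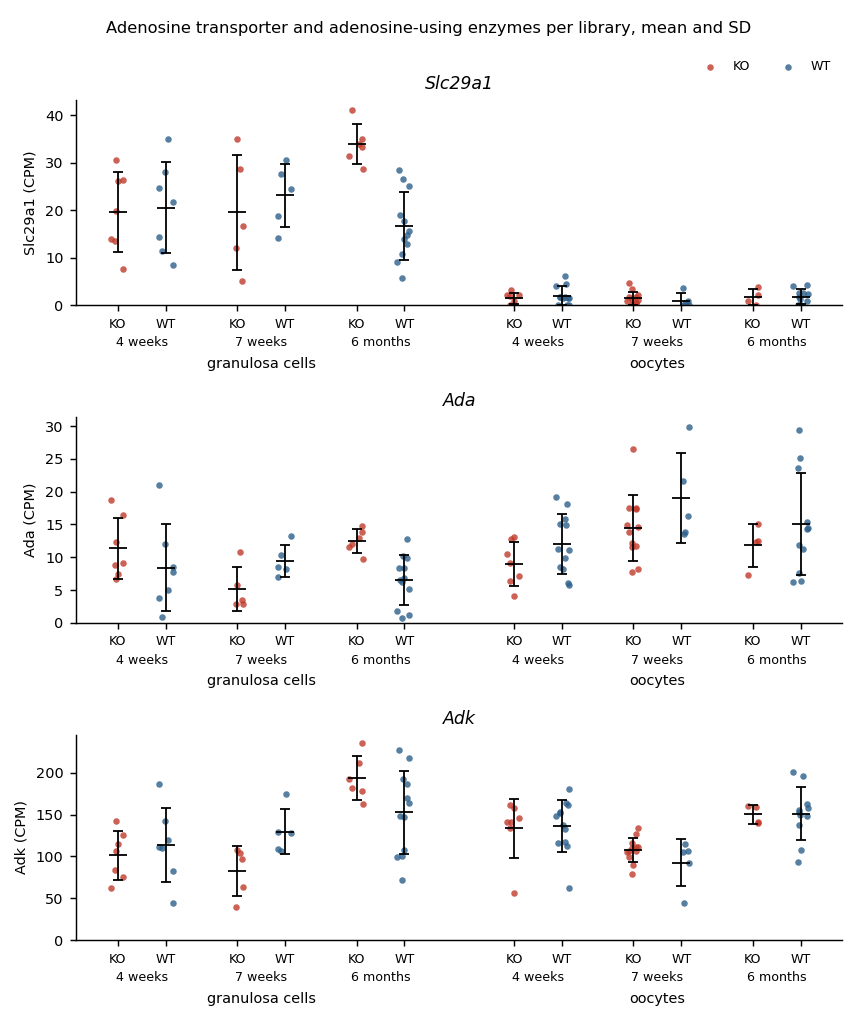
Slc29a1, Ada and Adk level per library in CPM (vertical axes) by cell type, age and genotype, with KO in red and WT in blue. Each point is 1 library, the horizontal dash is the group mean and the bars are SD. In granulosa cells at 6 months every KO library lies above the highest WT library for Slc29a1, with means of 33.9 CPM in KO and 16.7 CPM in WT.

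The adenosine receptors had group means of at most 8.53 CPM in granulosa cells. Adora1 (ENSMUSG00000042429.8, chr1:134199223-134235431), the receptor that couples to inhibitory G proteins, averaged 4.18 ± 3.38 CPM in KO and 4.00 ± 5.60 CPM in WT granulosa cells at 6 months, and its log2 change was 0.08 ± 0.72 (SE, adjusted p = 0.951). At 4 weeks it averaged 6.81 ± 5.12 CPM in KO and 4.21 ± 3.09 CPM in WT, and at 7 weeks 4.29 ± 2.37 CPM in KO and 8.53 ± 9.69 CPM in WT, where 1 WT library had 25.1 CPM. Its locus overlaps Mybph on the opposite strand.

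Adora2b (ENSMUSG00000018500.2, chr11:62248984-62266453), the low-affinity receptor that couples to stimulatory G proteins, had few counts in young KO granulosa cells. It summed to 18 counts over 7 KO libraries and 110 counts over 7 WT libraries at 4 weeks, where KO replicate 7 held 11 of the 18, 3 WT libraries held 62, 17 and 28 of the 110 and another 3 WT libraries had none, and to 11 counts over 5 KO and 54 counts over 5 WT libraries at 7 weeks. The gene was below the filter on low counts at both ages. At 7 weeks the KO libraries had 0, 0.87, 0, 1.57 and 0 CPM, against 7.12, 4.07, 1.26, 4.39 and 2.33 CPM in WT libraries. At 6 months KO granulosa cells averaged 3.82 ± 1.68 CPM and WT granulosa cells 6.38 ± 6.07 CPM, and the log2 change was -0.59 ± 0.66 (adjusted p = 0.553). At 4 weeks KO granulosa cells averaged 0.68 ± 1.00 CPM. No change with age is read from these levels, because the gene was below the filter in the 4 week table.

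Adora2a (ENSMUSG00000020178.6, chr10:75316877-75334784), the other receptor that raises cyclic AMP, stayed near the detection limit and entered no granulosa comparison between genotypes. At 6 months it had no count in any of 6 KO granulosa libraries, which allows up to 0.17 CPM over the group (3 counts of the summed total, counting error only), and 35 counts over 12 WT granulosa libraries, 10 of which had a count. The WT mean was 0.74 ± 0.95 CPM. Counts were present in KO granulosa cells at the younger ages, at 0.62 ± 0.63 CPM in KO and 0.95 ± 1.27 CPM in WT at 4 weeks, and at 1.81 ± 2.33 CPM in KO and 0.24 ± 0.44 CPM in WT at 7 weeks.

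**Figure D3:**
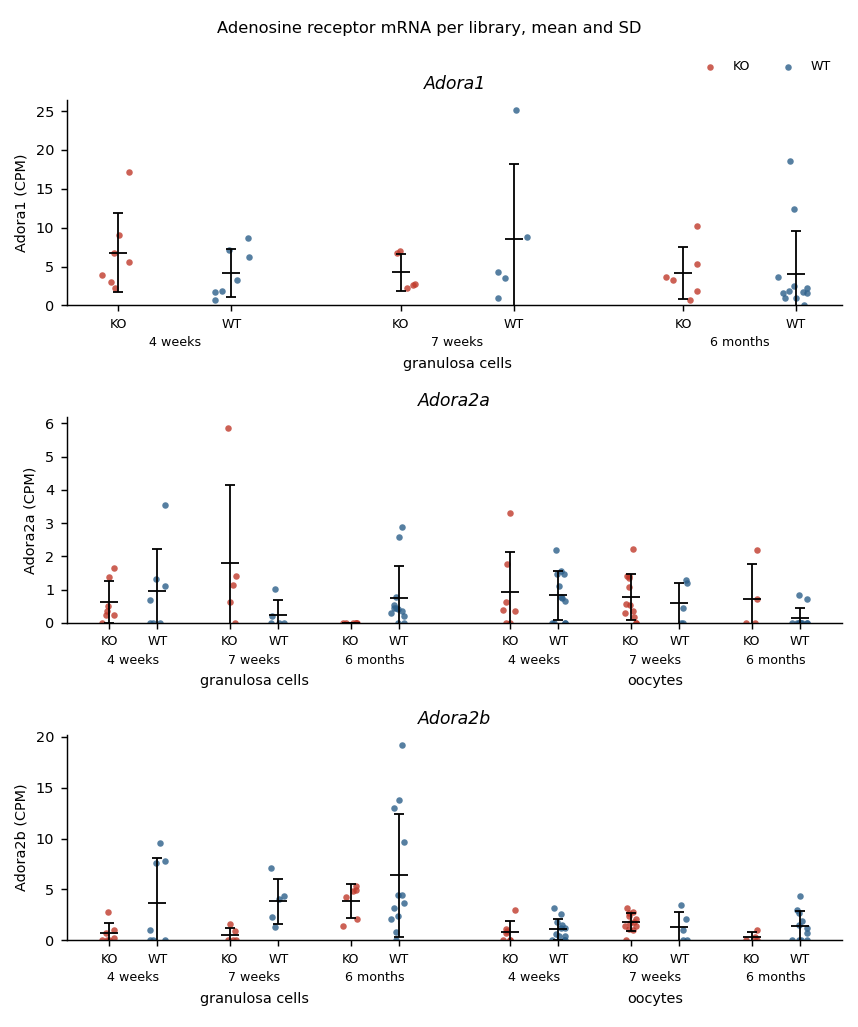
Adora1, Adora2a and Adora2b level per library in CPM (vertical axes) by cell type, age and genotype, with KO in red and WT in blue. Each point is 1 library, the horizontal dash is the group mean and the bars are SD. Bars are cut off at 0. Adora1 has no oocyte row, and Adora2a lies at 0 in all 6 KO granulosa libraries at 6 months.

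In oocytes no member passed between genotypes at any age. Of the 3 members tested at 4 weeks none passed, against 0.00924% of all genes, none of 4 at 7 weeks, against 0.154%, and none of 5 at 6 months, against 0.00818%. The genes with an unadjusted p under 0.05 numbered 351, 1963 and 396 at those ages. The labels do not say what a shared sample number means. At 7 weeks libraries were taken as paired by number, from residual correlations between 0.118 and 0.543 over 4 shared numbers. With the replicate block over those libraries 58 genes were called, none of them a member. Over the same libraries without the block 1 gene was called, and over all libraries of that age 18. With the block Entpd1 gave 0.14 ± 0.26 (adjusted p = 0.876) and Ada turned to 0.29 ± 0.32 (adjusted p = 0.761) by edgeR's quasi-likelihood test. Ada was 0.30 over the same libraries without the block, so its sign turned with the choice of libraries. Entpd1 averaged 48.4 ± 9.51 CPM in KO oocytes and 50.6 ± 16.2 CPM in WT oocytes at 4 weeks, 65.4 ± 21.8 CPM in KO and 51.2 ± 20.6 CPM in WT at 7 weeks, and 69.5 ± 9.27 CPM in KO and 58.5 ± 19.7 CPM in WT at 6 months. One WT library at 6 months had 9.49 CPM while the others had between 52.9 and 89.1 CPM. The log2 change of Entpd1, KO over WT, was -0.10 ± 0.21 at 4 weeks (adjusted p = 0.998), 0.50 ± 0.28 at 7 weeks (adjusted p = 0.355) and 0.28 ± 0.32 at 6 months (adjusted p = 0.999) by edgeR's quasi-likelihood test.

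None of the other members passed in oocytes. The log2 change of Adk was -0.05 ± 0.21, 0.35 ± 0.19 and 0.03 ± 0.22 at the 3 ages, and that of Ada -0.43 ± 0.28, -0.29 ± 0.25 and -0.33 ± 0.39. Ada averaged 11.8 ± 3.22 CPM in KO oocytes and 15.1 ± 7.83 CPM in WT oocytes at 6 months. The log2 change of Adora2b was -2.13 ± 1.28 at 6 months, 4.37-fold lower in KO (adjusted p = 0.999 by edgeR's quasi-likelihood test), at 0, 0, 0.34 and 0.97 CPM in KO oocytes and between 0 and 4.32 CPM in WT oocytes. All 4 KO oocyte libraries lay below the WT median, and 4 of the 11 WT libraries had no count. Adora2a and Adora2b stayed at group means between 0.14 and 1.78 CPM. Between 6 months and 4 weeks none of 6 members passed in KO oocytes, against 2.27% of all genes, and none of 6 in WT oocytes, against 15.4%. The test of whether the KO effect differed between 6 months and 4 weeks passed for none of 6 members, against 0% of all genes by edgeR and 0 genes by DESeq2 (397 genes with an unadjusted p under 0.05).

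**Figure D4:**
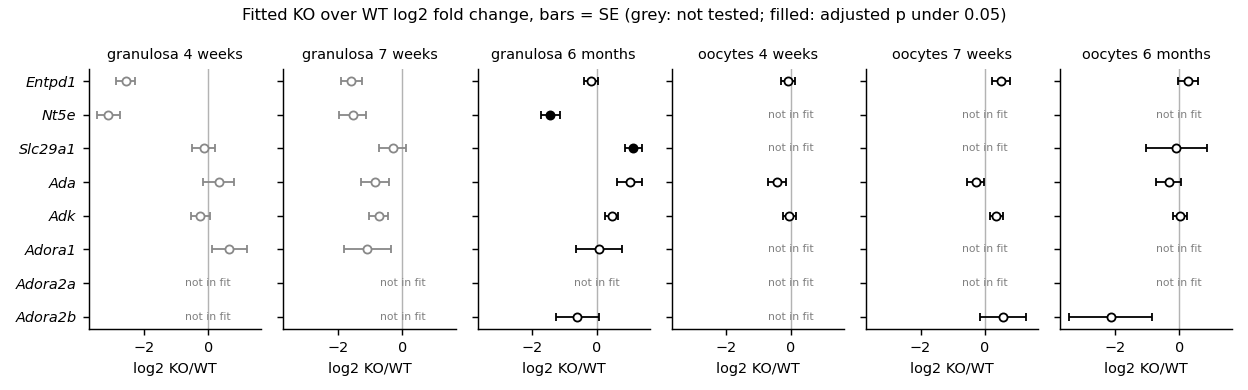
Fitted log2 fold change of the 8 members, KO over WT (horizontal axis), in each of the 6 genotype comparisons, with bars for SE. Grey circles are the granulosa comparisons at 4 and 7 weeks, shown without a test, and filled circles passed at an adjusted p under 0.05. Nt5e and Slc29a1 in granulosa cells at 6 months are the filled ones, at -1.44 and 1.14.

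Levels of 6 members were set side by side in granulosa cells and oocytes. The comparison was made at 6 months, within each genotype, over genes with a row in all 6 tables. The median log2 change of all genes was 0.22 in KO and 0.25 in WT with TMM, and 0.71 and 0.74 with library totals alone, so the scale of this comparison depends on the normalisation. Slc29a1 was higher in granulosa cells, at 3.81 ± 0.85 on the log2 scale in KO (adjusted p = 4.16e-05) and 2.65 ± 0.50 in WT (adjusted p = 1.71e-06). Adora2b was also called higher in granulosa cells, at 3.21 ± 1.27 in KO (adjusted p = 0.0190) and 1.71 ± 0.67 in WT (adjusted p = 0.0158) by edgeR's quasi-likelihood test. The KO call rests on 6 counts in 2 of 4 oocyte libraries, and nothing is read from it. Entpd1 was lower in granulosa cells than in oocytes, at -1.499 ± 0.342 in KO (adjusted p = 6.13e-05) and -0.98 ± 0.22 in WT (adjusted p = 4.92e-05). Ada was lower in WT granulosa cells, at -1.64 ± 0.31 (adjusted p = 1.19e-06), and gave -0.37 ± 0.46 in KO (adjusted p = 0.477).

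Of the 6 members, 2 were called higher and 2 lower in KO granulosa cells, against 39.6% and 35.2% of all genes, 74.8% in all. The higher ones in KO include Adora2b, whose call rests on few counts. In WT granulosa cells 3 were higher and 3 lower, against 45% and 38.6% of all genes, 83.6% in all. Adora2a was among the lower ones in KO, where granulosa cells had no count and oocytes averaged 0.73 ± 1.03 CPM (SD, n = 4). That call rests on 13 counts in 2 of 4 oocyte libraries, and nothing is read from it. Adora2a was among the higher ones in WT, at 0.74 ± 0.95 CPM in granulosa cells and 0.14 ± 0.32 CPM in oocytes (adjusted p = 0.0381 by edgeR's quasi-likelihood test). The WT call rests on 35 counts over 12 granulosa libraries and 8 counts in 2 of 11 oocyte libraries, and nothing is read from it either. Adk was called lower in WT granulosa cells, at -0.47 ± 0.20 (adjusted p = 0.0260), and this call was lost with DESeq2 size factors (adjusted p = 0.104), with the DESeq2 test (adjusted p = 0.104) and with library totals alone, where the sign turned (0.02, adjusted p = 0.922). The test of whether the KO effect differed between granulosa cells and oocytes at 6 months passed for none of the 6 members, against 0.223% of all genes. For Ada, whose KO effect was 1.02 in granulosa cells and -0.33 in oocytes in the separate fits, the difference in the joint fit was 1.28 ± 0.57 (p = 0.0264, adjusted p = 0.368 by edgeR's quasi-likelihood test). Adora2a had the smallest p of the 6 by that test, at -6.68 ± 1.91 (p = 0.000769, adjusted p = 0.108). Nothing is read from its value, since KO granulosa cells had no count of the gene.

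The order of the 12 groups by level showed few steps larger than the spread. For Entpd1 the order began with WT granulosa cells at 4 weeks (75.5 ± 24.3 CPM), KO oocytes at 6 months and WT granulosa cells at 7 weeks (69.0 ± 19.9 CPM) and ended with KO granulosa cells at 6 months, 7 weeks and 4 weeks. All 11 neighbouring pairs had overlapping ranges, and 1 gap was larger than the larger SD. For Nt5e, WT granulosa cells at 7 weeks were highest (78.9 ± 49.4 CPM) and KO granulosa cells at 4 weeks lowest (7.05 ± 3.61 CPM), and 1 of 5 gaps exceeded the larger SD. For Slc29a1 it was 2 of 11, and for Ada, Adk and the 3 receptors none.

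Genes whose group means ran most like those of 3 members were ranked by Pearson's r of log2(mean CPM + 1), a description across groups that share the libraries behind the choice of members. Entpd1 over the 12 groups was nearest to Col6a3 (r = 0.88), a collagen VI chain, then to Bbs10, Pbk, Upp1 and Srgn. Col6a3 averaged 5.02 CPM in KO and 52.5 CPM in WT granulosa cells at 4 weeks, and 8.72 CPM in KO and 32.1 CPM in WT at 6 months. Nt5e, compared over the 6 granulosa groups because it has no oocyte row, was nearest to Mtus1 (r = 0.996), then to Lyz1, Akr1c18, Mpc2 and Zcchc17. Akr1c18, the progesterone-degrading enzyme counted among the luteal markers, averaged 265 CPM in KO and 1461 CPM in WT granulosa cells at 4 weeks, and 572 CPM in KO and 1641 CPM in WT at 6 months. Adk was nearest to Arpc1b (r = 0.96), then to Dazap2, Idh3a, Mpc1 and Mtap.

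A further 70 gene symbols of purine release, breakdown, sensing, transport and salvage were listed by role. They include an older and a newer symbol of some genes, and 58 of them had a row in 1 or more count tables. In granulosa cells none of the 37 tested at 4 weeks and none of the 38 tested at 7 weeks passed between genotypes, against 2.33% and 0.8% of all genes, with a median log2 change of 0.05 at 4 weeks and -0.06 at 7 weeks, against -0.02 and 0.01 over all genes. At 6 months 5 of 41 rose and 4 fell, against 12.6% of all genes called, and the median was 0.17, against -0.02 over all genes. Among ATP release genes Panx1, a pannexin channel, fell by 1.05 ± 0.28 (SE, adjusted p = 0.0183), at 8.26 ± 2.33 CPM in KO and 19.2 ± 7.51 CPM in WT (SD). Among breakdown enzymes Enpp1, an ectophosphodiesterase that takes ATP to AMP and pyrophosphate, fell by 0.66 ± 0.17 (adjusted p = 0.0147), at 68.6 ± 21.7 CPM in KO and 118 ± 32.0 CPM in WT, while Entpd6 rose by 0.58 ± 0.18 (adjusted p = 0.0343).

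Among nucleotide receptors P2ry6, the UDP receptor, rose by 1.73 ± 0.42 (SE, adjusted p = 0.0100), at 12.98 ± 2.28 CPM in KO and 4.28 ± 2.47 CPM in WT granulosa cells (SD). Of the genes for purine handling inside the cell, Ak4, a mitochondrial adenylate kinase, fell by 1.41 ± 0.24 (adjusted p = 0.000567), at 30.4 ± 8.48 CPM in KO and 90.7 ± 37.5 CPM in WT. Mtap, which cleaves methylthioadenosine to adenine, rose by 0.61 ± 0.18 (adjusted p = 0.0285). The other three calls, named after their values were seen, were rises of Alpl (1.43 ± 0.44) and of the concentrative nucleoside transporter Slc28a3 (2.02 ± 0.63) and a fall of P2ry14 (-2.09 ± 0.65). In oocytes none of these genes passed between genotypes, out of 30, 34 and 31 tested at the 3 ages.

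**Figure D5:**
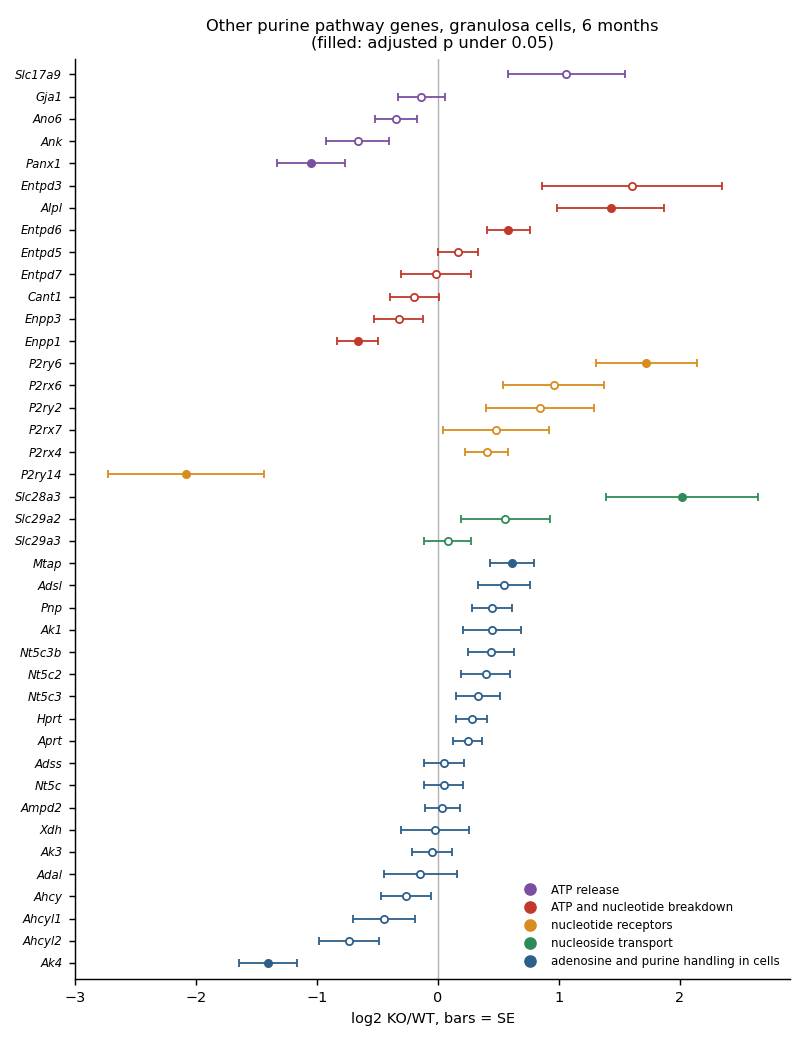
Fitted log2 fold change, KO over WT, of the 41 other purine pathway genes tested in granulosa cells at 6 months (horizontal axis, bars for SE), coloured and grouped by role from top to bottom. Filled circles passed at an adjusted p under 0.05, of which 5 lie right of 0 and 4 left of it, with Slc28a3 (2.02) and P2ry14 (-2.09) at the ends.

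With age, KO granulosa cells had 3 rises and 3 falls among 44 tested genes between 6 months and 4 weeks, against 13.8% of all genes called. The rises were Mtap (1.24 ± 0.23), Entpd6 (1.13 ± 0.27) and P2ry2, an ATP and UTP receptor (2.38 ± 0.83). The falls were Ank, a pyrophosphate and ATP exporter (-1.36 ± 0.32), Gja1, the gap junction protein connexin 43 (-0.87 ± 0.25), and Cant1 (-0.69 ± 0.23). WT granulosa cells had 4 rises among 44, in Ak4 (1.13 ± 0.31), Mtap (0.69 ± 0.20), Ahcy (0.78 ± 0.23) and Aprt (0.38 ± 0.12), and no fall, against 8% of all genes. In oocytes 1 of 38 changed with age in WT, where Cant1 fell by 1.00 ± 0.15, against 15.4% of all genes, and none passed in KO, against 2.27%. Between cell types at 6 months 17 were higher and 9 lower in KO granulosa cells than in KO oocytes out of 35, and 19 were higher and 11 lower in WT granulosa cells than in WT oocytes, against 74.8% of all genes called in KO and 83.6% in WT. Entpd6, at -3.62 ± 0.28 in KO and -3.94 ± 0.19 in WT, had the smallest p of these in both genotypes.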

How the data were processed

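Per the labels, total RNA of granulosa cells and oocytes was made into Smart-seq2 libraries. The submitters' processing notes name STAR, Partek, DESeq2 and the mm10 genome, without versions. The gene annotation and the strand of counting are not given in the sources used here. The authors deposited estimated counts per gene (expected counts, not normalised), 1 table per cell type and age, per the file headers, in which 15.1% to 18.0% of values are not whole. They were rounded for testing. The 93 columns of the deposited normalised tables were not used here.

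Samples were grouped by title. One column of the 7 week KO oocyte table joins 2 sample numbers and was kept as an unnumbered library of that group. No 2 libraries held identical values (367 pairs within groups). Levels are CPM over the library total, with SD over libraries. Intervals and floors cover counting error only.

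Low genes were removed by filterByExpr, TMM set the scale, and edgeR 4.0.16 in R 4.3.3 gave robust quasi-likelihood F tests, with Benjamini-Hochberg adjustment over all genes tested and a threshold of 0.05. KO was compared with WT within each table. Age and cell type contrasts came from tables joined by gene, with 1 mean per group. The SE of an edgeR log2 change was worked out from the test, as its absolute size over the square root of F. It is rough where a group has no counts. The procedure was tested on simulated data. DESeq2 1.42.0 served as an alternative. Relations between 2 measures over the 12 WT granulosa libraries at 6 months were tested by permutation with 100000 resamples (SciPy 1.17.1), and those over the 7 at 4 weeks, which entered the adjustment only, by exact permutation.

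Whether sample numbers pair libraries was checked with the residuals of KO and WT libraries that carry the same number. Oocytes at 7 weeks had 4 such numbers, each with a correlation above 0.1 (between 0.118 and 0.543). A fit with a replicate block is therefore given for them beside the main fit, which has no block. The labels do not state such a pairing. Each other table had at least 1 number at or below that.

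The members and all gene and marker lists were chosen with earlier results of these data known. Named were the members, Esr2, up to 6 other pathway genes per comparison past the test with the smallest p, and 5 genes of like pattern for Entpd1, Nt5e and Adk among genes with at least 5 CPM in 1 or more groups, leaving out predicted, numbered clone and pseudogene symbols. Coordinates are those of GENCODE vM21 (GRCm38). Promoters are RefSeq's for GRCm38.p6. One gene of the pathway list is not reported here and is left out of the list's counts.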

Additional observations from a re-analysis of the deposited data

Results flagged for a closer look

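Of 57 sets of 4 to 10 libraries of 1 member, 7 had a library far from the others by Dixon's criterion. For normally spread values chance flags about 1 set in 20. Values with few counts are not spread that way, so no excess is read from the 7. Adk was low in KO oocyte replicate 4 at 4 weeks, at 56.9 CPM, where the next library had 134 CPM. The other 6 concern low counts. Adora2a was high in KO granulosa replicate 3 at 7 weeks, at 5.86 CPM (14 counts, next library 1.40 CPM), in WT granulosa replicate 3 at 7 weeks, at 1.01 CPM (4 counts), and in WT granulosa replicate 3 at 4 weeks, at 3.54 CPM (5 counts, next library 1.33 CPM). Adora2b was high in KO granulosa replicate 7 at 4 weeks, at 2.75 CPM (11 counts), and in KO oocyte replicate 3 at 4 weeks, at 3.02 CPM (17 counts). Slc29a1 was high in WT oocyte replicate 2 at 7 weeks, at 3.74 CPM (15 counts, next library 0.85 CPM).

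The KO effect on Adk in granulosa cells ran in opposite directions at 7 weeks and 6 months. All 5 KO libraries lay below the WT mean at 7 weeks, with a log2 change of -0.74, and all 6 lay above it at 6 months, with a log2 change of 0.46. The difference between the ages was not tested.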

How the results depend on the processing

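Of the members' fold changes with a test, 304 of 325 kept direction and side of the threshold under other processing and 309 of 322 when 1 library was left out. Of those without a test, 105 of 106 and 142 of 144 kept their sign. In granulosa cells at 6 months Nt5e ran between -1.59 and -1.26 and Slc29a1 between 1.02 and 1.42 over 8 settings, both past the threshold in each, and likewise over the 18 libraries left out in turn. All genes shifted with library totals alone, to a median of -0.15 in that comparison and -0.29 in KO granulosa cells with age. Low depth and few counts limit the receptors.

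With library totals alone the sign turned for Adora1 in granulosa cells at 6 months (-0.031), Adk in oocytes at 6 months (-0.0099), Adora1 with age in WT granulosa cells (-0.029), Adk between cell types in KO (0.38) and WT (0.018) and Ada between cell types in KO (0.096). With DESeq2 size factors or the DESeq2 test it turned for Adk between cell types in KO (0.17 in each) and Adora1 with age in WT granulosa cells (-0.0037 and -0.023). With the immune sum as a covariate, Ada in granulosa cells at 4 weeks gave -0.44. Of those with a test, Adk between cell types in WT had passed before and none passed after, and the cause was not tested.

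Genes called moved past 1.5 times with the DESeq2 test in granulosa cells at 4 weeks (552, against 283) and 7 weeks (560, against 96), in oocytes at 7 weeks (248, against 18), in KO oocytes with age (672, against 306) and for the KO effect between cell types (144, against 26). With the immune covariate 87 were called at 4 weeks in granulosa cells, and without libraries under 1000000 counts 42 at 7 weeks. In oocytes at 7 weeks 30 were called with library totals, 30 with no filter on low counts and 437 with the granulosa marker sum as covariate. With library totals the calls with age in WT granulosa cells split into 364 higher and 931 lower, against 454 and 690.

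With the replicate block, 58 genes were called in oocytes at 7 weeks, of which 12 were among the 18, against 1 over the same libraries without it, and Ada turned to 0.29 (0.30 without it). In the other tables the numbers were not taken to pair libraries. All same-numbered pairs passed a correlation of 0.1 in none of them (2 of 7 and 4 of 5 pairs in granulosa cells at 4 and 7 weeks, 1 of 6 at 6 months, 2 of 7 and 0 of 4 in oocytes at 4 weeks and 6 months). There the block gave 257, 133 and 597 genes in granulosa cells at 4 weeks, 7 weeks and 6 months, and 1 gene in oocytes at both ages. Entpd1 in oocytes at 4 weeks was 0.22 with it and 0.21 over the same libraries without it, which also gave -0.077 for Adora1 in granulosa cells and 0.0067 for Slc29a1 in oocytes at 6 months. Fits over shared numbers without the block, and without the unnumbered library, were chosen after seeing the data.

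Leaving out 1 library gave between 36 (without WT replicate 4) and 209 (without KO replicate 4) genes in granulosa cells at 7 weeks, between 926 (without KO replicate 5) and 2057 (without WT replicate 4) at 6 months, and between 2 (without WT replicate 2) and 296 (without KO replicate 1) in oocytes at 7 weeks. Ranges that crossed 0 were -0.31 to 0.074 for Slc29a1 in granulosa cells at 4 weeks, -0.32 to 0.69 and -1.41 to 0.039 for Adora1 in granulosa cells at 6 months and 7 weeks, -0.089 to 0.098 and -0.040 to 0.081 for Adk in oocytes at 4 weeks and 6 months, and -0.79 to 0.33 for Slc29a1 in oocytes at 6 months.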
